A study of Mus musculus with 12 samples.

Results

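Autophagosomes carry Atg8 proteins on their membranes, small ubiquitin-like proteins that are made with a C-terminal extension. The Atg4 proteases cut this extension off, which exposes a glycine, and the conjugation machinery then joins the protein to phosphatidylethanolamine in the growing membrane. Lipidated Atg8 proteins bind cargo receptors and the machinery that brings autophagosomes to lysosomes, and Atg4 can also take them off the membrane again. In mammals the family falls into an LC3 branch and a GABARAP branch. The genes described here are the 9 genes of this system in the count table, taken by symbol from 24062 genes. The 5 Atg8 genes are Map1lc3a and Map1lc3b of the LC3 branch and Gabarap, Gabarapl1 and Gabarapl2 of the GABARAP branch. The 4 protease genes are Atg4a, Atg4b, Atg4c and Atg4d, and all 9 passed the filter on low counts.

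Poly(A) RNA was sequenced from 12 libraries of mouse embryonic fibroblasts (MEFs), 3 in each of 4 conditions. One MEF line expressed a control shRNA against Renilla luciferase (shRenilla), which mouse cells do not have, and the other an shRNA against Birc6 (shBruce), the gene of the giant ubiquitin-conjugating enzyme and apoptosis inhibitor BRUCE. Each line was kept in full medium (FM) or starved for 2 h without serum and amino acids (Starv). Each shRNA is represented by 1 retrovirally transduced, drug-selected line, so a difference between the lines cannot be told apart from a difference between the shRNAs. The labels do not say that replicates came from separate cultures, so p-values measure the spread between libraries, which may be technical. The sources used here do not say whether the sequenced lines also carried the LC3B reporter used elsewhere in the study, whose reads could be counted in Map1lc3b.

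Total counts ranged from 7717265 to 18510540 per library, and the smallest total was that of shBruce Starv replicate 1. Birc6 itself had a mean normalized count of 4339 in shRenilla FM and 1287 in shBruce FM libraries, and of 4086 and 1035 in Starv, without overlap between the lines. Its log2 difference was -1.75 in FM, with an edgeR adjusted p of 0.0627 (Benjamini-Hochberg over all genes, quasi-likelihood test), and -1.98 in Starv, where the edgeR adjusted p was 0.0186. The 10 fibroblast markers summed to between 9653 and 14029 CPM in every library. One of them, Thy1, was nearly absent throughout, at 0 to 0.162 CPM over all 12 libraries. Epithelial markers summed to at most 2.98, endothelial markers to at most 4.54 and immune markers to at most 9.63 CPM. The 3 pluripotency markers summed to between 7.76 and 43.6 CPM, of which Sox2 made up nearly all. In shRenilla MEFs that sum was 24.2 to 27.5 CPM in FM and 7.76 to 9.93 CPM in Starv, and its part in the starvation results was not tested.

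The members that moved with starvation are introduced by their upstream sequence. Both genes called in either line, Gabarapl1 and Map1lc3b, lie on the plus strand of chromosomes 6 and 8. For each gene the part of the RefSeq promoter window (GRCm38.p6) before the annotated transcript start is given, 5′ to 3′, and for Map1lc3b also a short stretch around the RefSeq start, which lies after that transcript start. Capitals mark a match to one of the motifs searched.
Gabarapl1, chr6:129532942-129533159: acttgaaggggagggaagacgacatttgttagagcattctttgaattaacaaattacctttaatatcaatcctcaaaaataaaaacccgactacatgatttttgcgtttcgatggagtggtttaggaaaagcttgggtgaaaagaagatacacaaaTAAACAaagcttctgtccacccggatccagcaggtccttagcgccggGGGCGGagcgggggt
Map1lc3b, chr8:121590188-121590360: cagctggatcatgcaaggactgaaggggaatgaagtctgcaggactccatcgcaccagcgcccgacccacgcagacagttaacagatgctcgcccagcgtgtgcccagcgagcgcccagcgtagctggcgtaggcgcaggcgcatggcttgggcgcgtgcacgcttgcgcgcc
Map1lc3b, RefSeq start, chr8:121590430-121590451: ccgcgagtCACCTGactcggct

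The Gabarapl1 sequence holds the forkhead core TGTTTA on the minus strand (TAAACA as printed), a motif bound by FOXO factors, and the GC box GGGCGG bound by Sp1 factors. The Map1lc3b stretch before the transcript start holds no match, and the E-box variant CACCTG lies at its RefSeq start. The whole windows reach further than the stretches shown, and over them the GC box occurs in both genes, on the minus strand at position -37 from the RefSeq start in Map1lc3b. The 2 stretches differ in base composition, with 43.6% G and C in Gabarapl1 and 65.9% in Map1lc3b. The table holds windows of 300 bases for 8 of the 9 members, 10 windows in all. Read on both strands, the core TGTTTA occurred in 2 of the 10 member windows, those of Gabarapl1 and Atg4a, and in 13.4% of all 32851 windows. The longer forkhead form TGTTTAC, which contains that core, occurred in 0 of them and in 3.65% of all. The E-box CACGTG, the centre of the element bound by TFEB, occurred in 0 of the member windows and in 7.15% of all. The variant CACCTG occurred in 1 and in 20.2% of all, and the composite site TGATGNAA of ATF4 in 0 and in 3.97% of all. The GC box occurred in 6 member windows and in 35.7% of all. A match describes the letters of a window and is not a binding site.

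**Figure D1:**
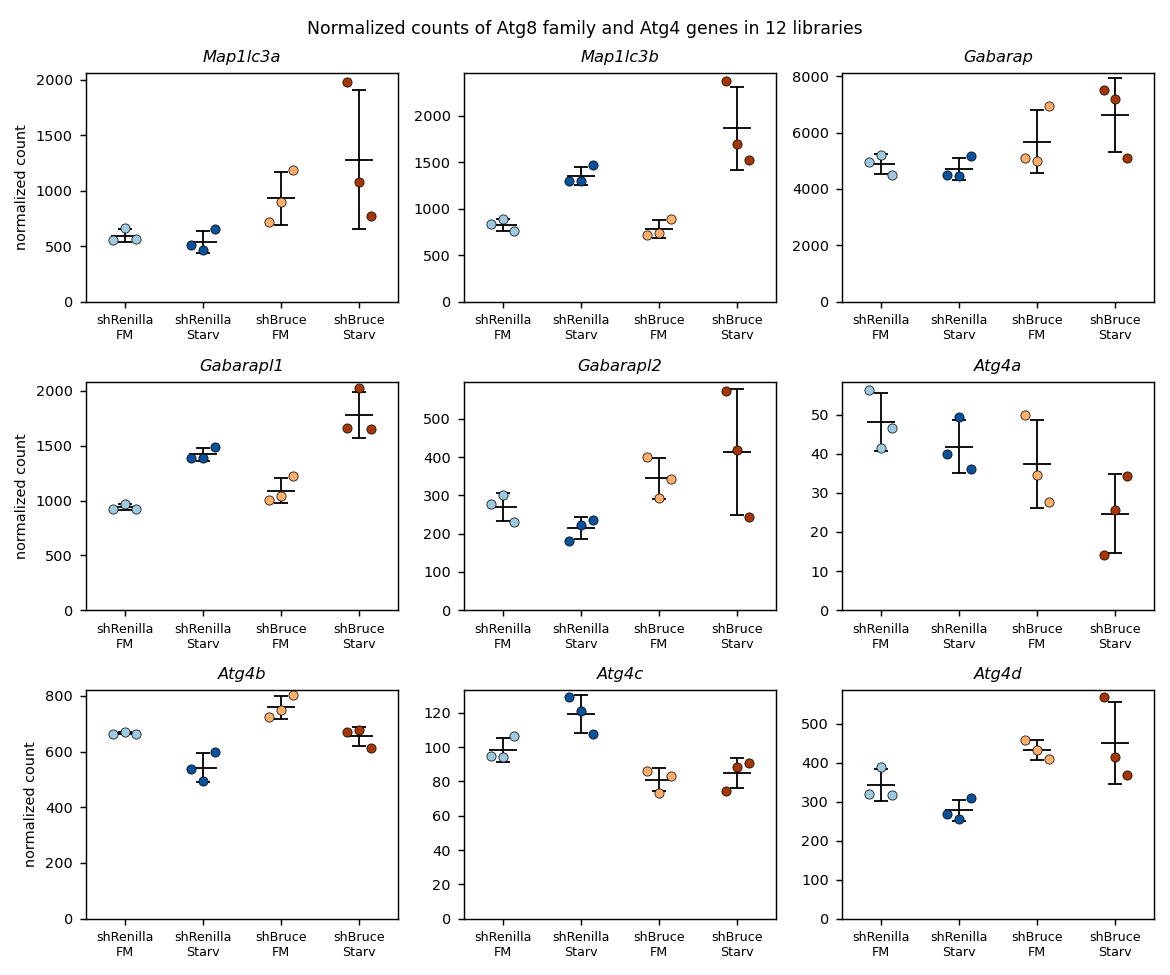
Normalized counts (y axis, linear from 0) of the 9 genes in each of the 12 libraries, by line and medium. Points are libraries and bars are the mean and SD of 3 libraries. Map1lc3b and Gabarapl1 have every Starv library above every FM library of the same line, and shBruce Starv spreads widest for Map1lc3a.

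In transcripts, the Atg8 family was led by Gabarap in every condition. Per kb of reference transcript, its normalized count averaged 3616 in shRenilla FM, 3491 in shRenilla Starv, 4202 in shBruce FM and 4895 in shBruce Starv libraries. In shRenilla FM the next gene, Map1lc3a, stood at 534 per kb and Gabarapl1 at 517, and their libraries overlapped. Map1lc3b followed at 326 and Gabarapl2 came last at 161, each without overlap with its neighbour. In shRenilla Starv, Gabarapl1 at 781 stood above Map1lc3b at 535, without overlap, while Map1lc3b and Map1lc3a at 487 overlapped. In shBruce Starv, Map1lc3a at 1151 overlapped Gabarapl1 at 979, and Gabarapl1 overlapped Map1lc3b at 736. Map1lc3b did not overlap Gabarapl2, at 246. The place of Map1lc3b depends on the length used, since its annotated exons together span 5182 bases and its reference transcript 2532. Divided by the longer length, a choice made after the data had been seen, it stood at 159 per kb in shRenilla FM, where its libraries overlapped those of Gabarapl2, and at 150 in shBruce FM, below Gabarapl2 without overlap.

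Among the proteases the order was the same in all 4 conditions. Atg4b, the protease with the broadest activity on Atg8 proteins, stood at 160 per kb in shRenilla FM libraries, Atg4d at 57.4, Atg4c at 31.0 and Atg4a at 21.9, and no neighbours overlapped in any condition. Of the 50-base stretches of the Atg4a transcript, 63.6% also occur in another gene, against 2.14% for Atg4c. The level and last place of Atg4a therefore depend on how such reads were counted, which was not tested. The protease total was 270 per kb in shRenilla FM against an Atg8 total of 5153, of which Gabarap held 70.2%. Atg4b alone stood near the lowest Atg8 gene, Gabarapl2, which was at 161 in shRenilla FM. In shRenilla Starv the 2 genes were at 130 and 127.

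Starvation raised Map1lc3b and Gabarapl1 in both lines, and edgeR's test called no member lower. In shRenilla MEFs these were 2 of the 9 members called higher in a comparison where 9.69% of the 12154 genes tested were higher and 7.27% lower. In shBruce MEFs they were again 2 of 9, where 12.4% of all genes were higher and 10.6% lower. Upper-quartile scaling moved the split over all genes toward higher calls, to 1588 higher and 641 lower in shRenilla against 1178 and 883, and to 1991 and 933 in shBruce against 1506 and 1284. By edgeR's test the other 7 genes were called in neither line. The median log2 fold change of the 9 members was -0.13 in shRenilla and 0.22 in shBruce MEFs, beside medians of -0.01 and 0.02 over all genes. The starvation comparisons use separate libraries for each line, while each shares its FM or Starv libraries with a comparison between lines.

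Map1lc3b encodes LC3B, the Atg8 protein most used to follow autophagosomes. Its normalized counts in shRenilla FM were 834, 886 and 757, and in shRenilla Starv 1300, 1295 and 1468. In shBruce FM they were 716, 736 and 888, and in shBruce Starv 2372, 1698 and 1523. Every Starv library lay above every FM library of its line, as for 25.9% of all genes tested in shRenilla and 16.2% in shBruce MEFs. The shallow shBruce Starv replicate 1 was highest. The log2 fold change was 0.71 in shRenilla MEFs (standard error, SE, 0.16, 95% confidence interval, CI, 0.37 to 1.06, edgeR adjusted p = 0.00818). In shBruce MEFs it was 1.25 (SE 0.16, 95% CI 0.90 to 1.60, edgeR adjusted p = 1.7e-04), and 1.03 without shBruce Starv replicate 1. The difference between these responses was 0.54 with an SE of 0.23 and an edgeR adjusted p of 0.806. Zcchc14, on the opposite strand, shares 58 exon bases with Map1lc3b and had between 354 and 2207 counts per library. The part of such reads was not tested.

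Gabarapl1 encodes a GABARAP-branch protein that binds many cargo receptors. Its normalized counts in shRenilla FM were 926, 973 and 921, and in shRenilla Starv 1388, 1389 and 1487. In shBruce FM they were 1008, 1044 and 1223, and in shBruce Starv 1661, 2028 and 1654. The starved libraries of either line were all above those in FM, and within shRenilla the 3 libraries of a medium lay close together. The log2 fold change was 0.60 in shRenilla MEFs (SE 0.12, 95% CI 0.34 to 0.85, edgeR adjusted p = 0.00408) and 0.71 in shBruce MEFs (SE 0.12, 95% CI 0.45 to 0.96, edgeR adjusted p = 0.00113). The difference between the lines' responses was 0.11 with a 95% confidence interval of -0.25 to 0.47. An antisense transcript, 1700101I11Rik, shares 377 exon bases with the gene on the opposite strand and had between 0 and 4 counts per library.

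For the remaining Atg8 genes the media overlapped in both lines. Gabarap, whose protein is linked to late steps of autophagosome maturation, had normalized counts of 4967, 5190 and 4500 in shRenilla FM and of 4510, 4471 and 5166 in shRenilla Starv. In shBruce MEFs it had 5088, 4984 and 6957 in FM and 7523, 7205 and 5110 in Starv. Its log2 fold changes were -0.05 (95% confidence interval -0.41 to 0.31) in shRenilla and 0.22 (-0.14 to 0.58) in shBruce MEFs. Map1lc3a, which encodes the second LC3-branch protein, had 558, 660 and 562 in shRenilla FM and 508, 463 and 652 in shRenilla Starv. In shBruce MEFs it had 714, 895 and 1185 in FM and 1982, 1082 and 776 in Starv. Its shBruce log2 fold change was 0.45 with a 95% confidence interval of -0.16 to 1.06, and -0.02 without shBruce Starv replicate 1. With length and GC trends removed, the shBruce values were 0.15 for Map1lc3a and 0.09 for Gabarap. Gabarapl2, a GABARAP-branch gene also known as GATE-16 that takes part in Golgi transport, had log2 fold changes of -0.34 in shRenilla and 0.24 in shBruce MEFs, with edgeR adjusted p-values of 0.388 and 0.508.

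None of the 4 protease genes was called under starvation by edgeR's test. Atg4b came nearest: its normalized counts were 662, 671 and 665 in shRenilla FM and 536, 493 and 599 in shRenilla Starv. In shBruce MEFs they were 723, 749 and 804 in FM and 670, 679 and 614 in Starv. Every Starv library lay below every FM library of its line, as for 26.5% of all genes tested in shRenilla and 14.8% in shBruce MEFs. The log2 fold changes of Atg4b were -0.29 (edgeR adjusted p = 0.0882) and -0.21 (edgeR adjusted p = 0.186). In shRenilla MEFs this difference was called by DESeq2's Wald test and by a fit of the compared groups alone. Atg4d, whose transcript is the longest of the 9, had log2 fold changes of -0.30 and 0.05, and Atg4c 0.28 and 0.08. Atg4a had -0.20 and -0.52, from between 7 and 69 counts per library, so its values carry the largest counting error. In shRenilla MEFs the media also did not overlap for Atg4d, lower in Starv, and for Atg4c, higher in Starv.

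**Figure D2:**
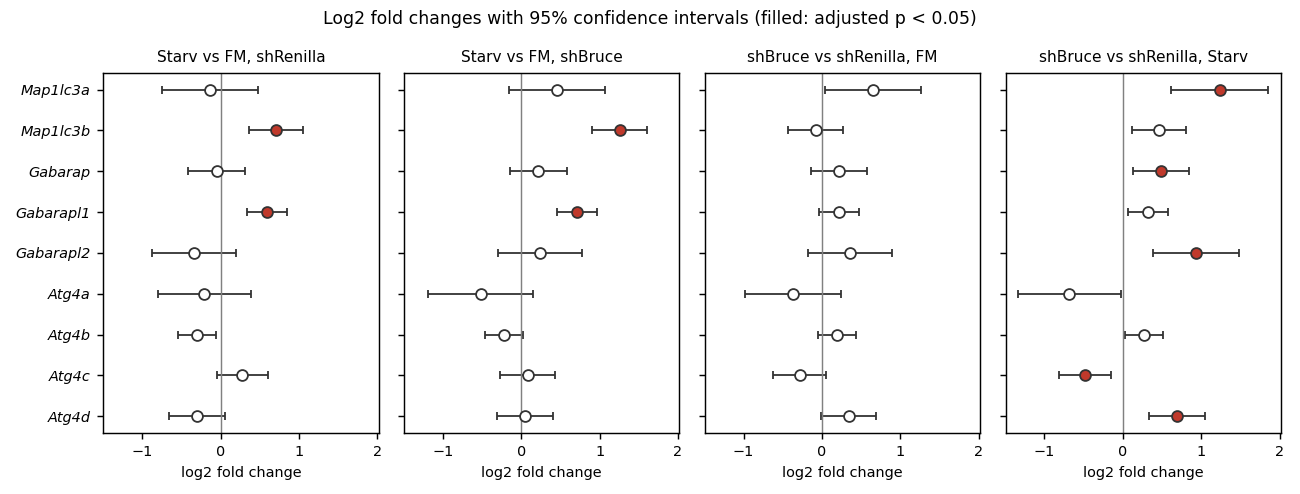
Log2 fold changes (x axis) of the 9 genes in the 4 comparisons, with 95% confidence intervals from the edgeR fit of all 12 libraries. Filled points have an adjusted p under 0.05: Map1lc3b and Gabarapl1 in both starvation panels, none between lines in FM, and 5 genes between lines in Starv.

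The ratio of 2 genes in the same library does not depend on how libraries are scaled, and 7 such ratios were compared between media. The ratios were chosen with earlier results of these data known. Those with Map1lc3b or Gabarapl1 on top restate, from the same libraries, the rise of the 2 members called higher. They are not separate support for it, and the share of other gene pairs that moved as far was not computed. Media were permuted within each line, which gives 400 arrangements and a smallest two-sided p of 0.005. The count ratio of Map1lc3b to Gabarap was 0.168, 0.171 and 0.168 in the shRenilla FM libraries and 0.288, 0.290 and 0.284 in the shRenilla Starv libraries. In shBruce it was 0.141, 0.148 and 0.128 in FM and 0.315, 0.236 and 0.298 in Starv. All 6 Starv libraries were above all 6 FM libraries, and the ratio rose 1.86-fold on average over the lines (exact permutation p = 0.005, adjusted p = 0.0117 over the 7 ratios). The ratio of Map1lc3b to Map1lc3a, the 2 LC3-branch genes, rose 1.81-fold (exact permutation p = 0.005, adjusted p = 0.0117), by a log2 value of 0.86 in each line.

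Within the GABARAP branch the balance moved toward Gabarapl1. Its count ratio to Gabarap rose 1.48-fold (exact permutation p = 0.005, adjusted p = 0.0117), with log2 values of 0.65 in shRenilla and 0.49 in shBruce MEFs. Its ratio to Gabarapl2 rose 1.65-fold (exact permutation p = 0.015, adjusted p = 0.021). In shBruce MEFs that ratio was 2.52, 3.57 and 3.57 in FM and 2.90, 4.84 and 6.77 in Starv, so the media overlapped there. Among the proteases, the ratio of Atg4c to Atg4b rose 1.34-fold (exact permutation p = 0.01, adjusted p = 0.0175), with log2 values of 0.57 in shRenilla and 0.28 in shBruce MEFs. In shBruce MEFs it was 0.119, 0.0979 and 0.104 in FM and 0.111, 0.131 and 0.148 in Starv, so the media overlapped there too. The ratios of Atg4a and Atg4d to Atg4b had log2 differences of -0.17 and 0.13 (exact permutation p = 0.575 and 0.295). The ratios with an adjusted p under 0.05 kept it in all 12 fits that left out 1 library.

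**Figure D3:**
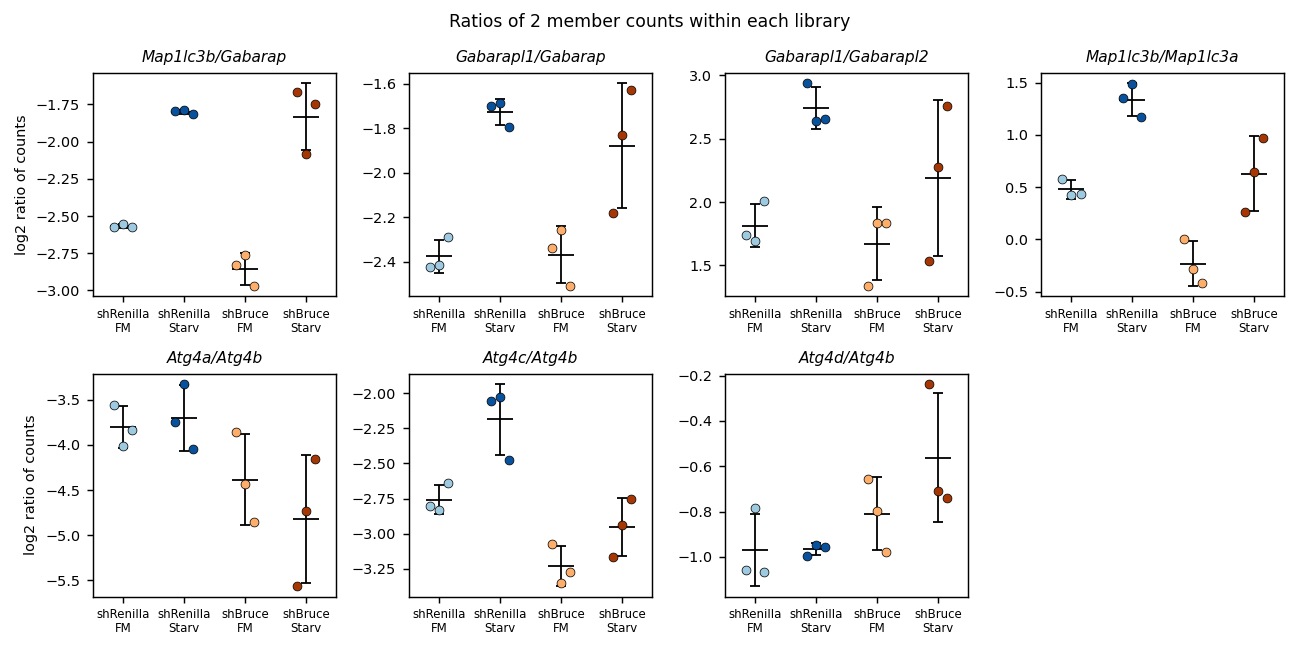
Log2 ratios of the counts of 2 genes (y axis) in each library, by line and medium, with the mean and SD of 3 libraries. The first 4 panels and Atg4c/Atg4b have higher means in Starv than in FM in both lines, while Atg4a/Atg4b moves in opposite directions in the 2 lines.

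Starvation differences were also read against transcript length, in 5 groups of genes of equal size (length quintiles). In shRenilla MEFs, the shortest quintile had a median starvation log2 fold change of -0.15 and the longest 0.11. In shBruce MEFs the corresponding medians were 0.12 and -0.05. Map1lc3b and Gabarapl1 were in the second-shortest quintile, with medians of -0.05 and 0.04 in the 2 lines. With the trends of each library against length and GC content removed, both were still called in both lines.

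As a description of the family's make-up, Gabarap held 70.2% ± 0.671 (SD, n = 3) of the Atg8 total per kb in shRenilla FM and 64.4% ± 0.0981 in shRenilla Starv libraries. In shBruce it held 68.2% ± 1.33 in FM and 61.3% ± 2.81 in Starv. Map1lc3b went from 6.33% ± 0.0578 to 9.87% ± 0.112 in shRenilla and from 5.04% ± 0.289 to 9.22% ± 1.02 in shBruce MEFs. Gabarapl1 went from 10.0% ± 0.476 to 14.4% ± 0.615 and from 9.83% ± 0.708 to 12.6% ± 2.71. Shares in a sum move together by construction, so no test was made. In the protease total, Atg4b held between 55.7% and 61.2% in the 4 conditions, and Atg4c went from 11.5% ± 0.927 to 16.2% ± 2.06 in shRenilla MEFs.

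**Figure D4:**
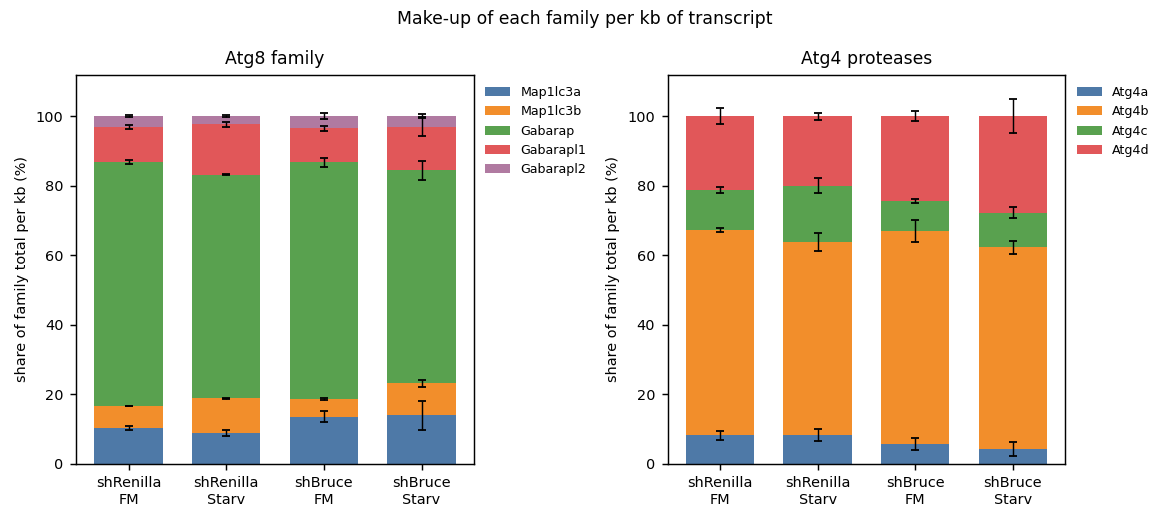
Mean share (y axis, percent) of each gene in the summed normalized count per kb of its family, by condition, with the SD of 3 libraries on the top edge of each segment. Gabarap holds 61.3% to 70.2% of the Atg8 sum and Atg4b 55.7% to 61.2% of the protease sum.

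Between the lines in FM, no member was called. Here edgeR called 0 of the 12154 genes tested (0%), with 1750 at an unadjusted p under 0.05, and DESeq2's Wald test called 26 higher and 50 lower, none of them a member. Fitted to the FM libraries alone, edgeR called 221 higher and 376 lower of 11680 genes. No member was among them, and Map1lc3a had an edgeR adjusted p of 0.0532 in that fit. One member, Map1lc3a, had an unadjusted p under 0.05. Its FM log2 difference was 0.65 with a 95% confidence interval of 0.03 to 1.27 and an edgeR adjusted p of 0.328, and all 3 shBruce FM libraries were above the shRenilla FM libraries. Gabarapl1, Atg4b and Atg4d were also higher, and Atg4c lower, without overlap. Over all genes tested, 16.4% were higher and 17% lower in this way. For Map1lc3b the difference was -0.08 (95% confidence interval -0.43 to 0.26), for Gabarap 0.22 (-0.14 to 0.58) and for Gabarapl1 0.22 (-0.04 to 0.47). For Atg4b it was 0.19 (-0.05 to 0.43). Over all genes the median FM difference was 0.22 in the shortest and -0.23 in the longest length quintile. With length and GC trends removed, the FM differences were 0.30 for Map1lc3a and 0.06 for both Gabarap and Gabarapl1.

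After starvation, 5 of the 9 members differed between the lines. Of these, 4 were among the genes higher in shBruce MEFs, 12.8% of all genes tested, and 1 among the lower ones, 11.2%. Gabarapl2 had normalized counts of 181, 223 and 236 in shRenilla Starv and of 573, 419 and 244 in shBruce Starv, without overlap, and a log2 difference of 0.94 (SE 0.25, edgeR adjusted p = 0.0272). For Map1lc3a the log2 difference was 1.23 (SE 0.29, edgeR adjusted p = 0.0225), and for Gabarap 0.49 (SE 0.17, edgeR adjusted p = 0.0498), the latter with overlapping libraries. Atg4d had 269, 256 and 308 in shRenilla Starv and 569, 415 and 368 in shBruce Starv, again without overlap, and a log2 difference of 0.69 (SE 0.17, edgeR adjusted p = 0.0232). Atg4c had 129, 121 and 108 against 74.7, 88.6 and 91.0 and was lower by a log2 difference of -0.48 (SE 0.16, edgeR adjusted p = 0.0418). Map1lc3b, at 0.46, and Gabarapl1, at 0.33, had edgeR adjusted p-values of 0.0520 and 0.0590. Gabarap was the only member whose Starv libraries overlapped between the lines. Over all genes tested, 16.4% were higher and 18.5% lower in shBruce Starv without overlap.

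These calls between lines changed when single libraries were left out, and so did those over all genes. Without shBruce Starv replicate 1, 0 members were called, beside 226 higher and 347 lower of 12254 genes, and the log2 differences were 0.76 for Map1lc3a, 0.62 for Gabarapl2, 0.37 for Gabarap, 0.48 for Atg4d and -0.43 for Atg4c. Leaving out shBruce Starv replicate 2, or replicate 1 or 2 of shRenilla Starv, also gave 0 calls among members. Over all genes edgeR then called 5 higher and 10 lower without the first, and 0 without either of the others, with 3495 and 3409 genes at an unadjusted p under 0.05. Without shBruce Starv replicate 3, 7 members were called higher and 2 lower, beside 2727 higher and 3008 lower of 12278 genes. Over 12 refits without 1 library, Map1lc3a, Gabarapl2 and Atg4d were called 8 times, Atg4c 3 times and Gabarap 2 times. Over all genes, the shortest quintile had a median line difference in Starv of 0.46 and the longest of -0.40. Map1lc3a, Gabarap and Gabarapl2 were in the shortest quintile, while Atg4d, higher in shBruce, was in the longest. With the trends against length and GC content removed, Atg4d was the 1 member still called, at 0.84 (edgeR adjusted p = 0.0376), Gabarapl2 stood at 0.81, Map1lc3a at 0.44 and Gabarap at 0.14, and over all genes 341 were called higher and 266 lower. Atg4d shares 1405 exon bases with Kri1 on the opposite strand, which had between 381 and 1522 counts per library, and the part of such reads was not tested.

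**Figure D5:**
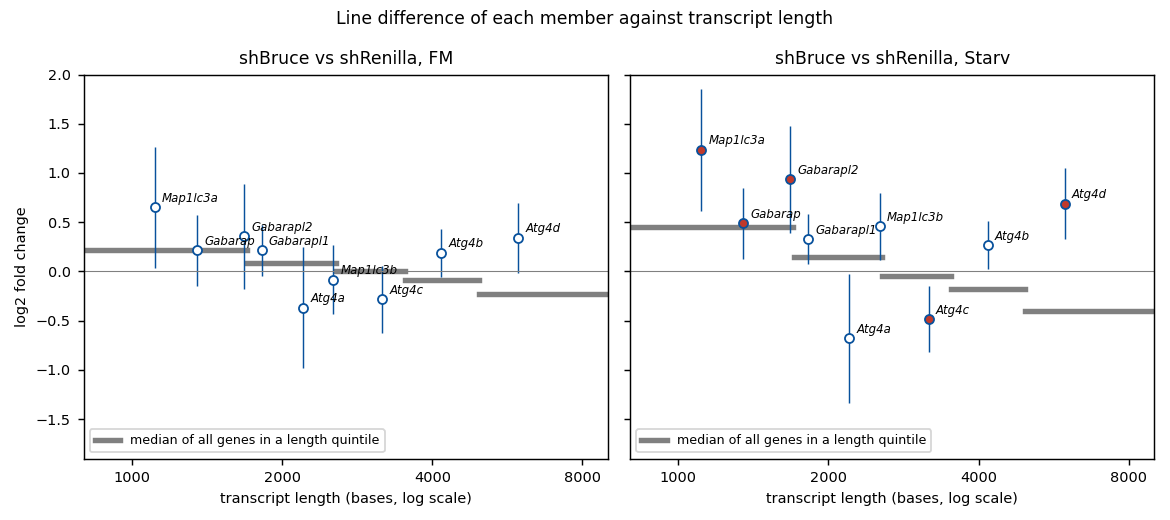
Log2 difference of shBruce against shRenilla MEFs (y axis, with 95% confidence intervals) for the 9 genes by reference transcript length (x axis, log scale), in FM and in Starv. Grey bars are medians of all genes tested in each length quintile, from 0.46 for the shortest to -0.40 for the longest in Starv, and filled points have an adjusted p under 0.05.

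The interaction of line and medium was called for 0 of 9 members and for 0 of all genes tested (0%) by edgeR, with 474 genes at an unadjusted p under 0.05, and for 0 genes by DESeq2's Wald test and by limma-voom. Among members, Map1lc3b alone had an unadjusted p under 0.05.

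Other genes of the pathway were read from 6 lists of 52 genes, all of them tested. In shRenilla MEFs 13 rose and 0 fell under starvation, and in shBruce MEFs 12 rose and 1 fell, with list medians of 0.21 and 0.08 on the log2 scale. Over all genes tested, 9.69% rose and 7.27% fell in shRenilla and 12.4% rose and 10.6% fell in shBruce MEFs. The medians over all genes were -0.01 and 0.02. Of the 7 genes that conjugate Atg8 proteins, Atg12, the ubiquitin-like protein joined to Atg5, rose in both lines, by 0.75 and 0.80. Atg16l1, which places the conjugating complex on the membrane, fell by 0.49 in shBruce MEFs. Of the 10 genes of the initiation complexes, 6 rose in shRenilla and 5 in shBruce MEFs. They were led by Atg14, which directs the lipid kinase Vps34 to sites of autophagosome formation, at 1.65 and 1.69, and by Atg13, a partner of the kinase Ulk1, at 0.94 and 0.86.

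Of the 8 membrane expansion genes 3 rose in each line, among them Zfyve1, which marks omegasomes, at 1.01 and 0.70, and Wdr45, at 0.86 and 0.78. Of the 13 genes of Atg8-binding receptors 3 rose in each line. The ubiquitin-binding receptors Sqstm1, which encodes p62, and Nbr1 rose by 0.95 and 0.91 in shRenilla and by 1.04 and 0.79 in shBruce MEFs. None of the 8 fusion genes and none of the 6 TFEB and FOXO family genes was called in either line by edgeR's test. These lists are short beside the shares over all genes, so the absence of calls is not a result about them. For the line difference in Starv, 2 of the 52 genes rose and 5 fell, beside 12.8% and 11.2% of all genes tested. In FM none was called, as over all genes (0%).

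The tested genes whose 12 libraries followed a member most closely were found by the root mean square difference of log2 normalized counts, each centred on its own mean. For Gabarapl1 these were Tbc1d17 (0.0754), Sars (0.0971) and Rit1 (0.0979), beside a root mean square deviation of 0.365 for Gabarapl1 itself. For Map1lc3b they were Ccdc181 (0.116), Zfp219 (0.120) and Ngrn (0.130), beside 0.538. For Gabarap they were Rnaseh2b, Taf13 and Fdx1, for Map1lc3a Bcl7c, Etfb and Apitd1, and for Gabarapl2 Ahcy, Cox6c and Minos1.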

How the data were processed

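Total RNA of 12 MEF libraries was poly(A)-selected and sequenced as single-end reads by the authors, who removed rRNA reads, mapped the rest to mm10 with STAR 2.4.0d and counted reads per gene with HTSeq 0.5.4p3. The deposited table holds raw counts, not normalized. The gene annotation and strand setting of the counting are not given in the sources used here, so reads of overlapping antisense genes and pseudogenes cannot be told apart from those of a member. Replicate libraries of a condition differed by chi-square values of 2.18 to 92.3 per degree of freedom, so none was a repeat deposit.

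The fit used edgeR 4.0.16 (R 4.3.3; TMM, filterByExpr, a mean per condition over all 12 libraries, quasi-likelihood test, two-sided, Benjamini-Hochberg adjustment over all genes tested, level 0.05). Normalized counts are counts divided by effective library size relative to the geometric mean. Levels per kb use GENCODE M21 reference transcripts on GRCm38. For single genes the exact permutation test of 3 libraries against 3 has a smallest two-sided p of 0.1, which was the value wherever the libraries did not overlap. Promoter windows came from RefSeq on GRCm38.p6, and a pseudocount of 0.5 was added before logs for the likeness measure. The members were defined by symbol, and the choice of this gene set, the lists and the tests was made with earlier results of these data known. The genes named are the members, Birc6, up to 2 rising and 2 falling genes per list, and 3 nearest genes per Atg8 gene. Alternatives were other scalings, DESeq2 1.42.0, limma-voom (limma 3.58.1), other filters, only the groups compared, a replicate block, removal of length and GC trends, and each library left out. The processing was tested on simulated counts. Tables used Python 3.11.15 with pandas 2.3.3, figures matplotlib 3.10.9.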

Additional observations from a re-analysis of the deposited data

How the results depend on the processing

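The rise of Map1lc3b and Gabarapl1 under starvation was called in both lines under all 22 alternatives, and the log2 fold change ranged from 0.65 to 0.79 and from 0.56 to 0.68 in shRenilla and from 1.03 to 1.38 and from 0.60 to 0.80 in shBruce MEFs. Members called lower under starvation in shRenilla came to 1 (Atg4b) with DESeq2's Wald test and with only the groups compared, where 1201 of 12153 and 2332 of 11954 genes were lower. Those called higher in shBruce ranged from 2 to 4 when 1 library was left out. The 4 came without shBruce Starv replicate 3, where 1974 of 12278 genes were higher. With upper-quartile scaling the median of all genes for starvation in shBruce MEFs was 0.11 in place of 0.02. The line difference in Starv depended most on the processing. Members called higher there were 7 with DESeq2's Wald test (2004 of 11681 genes), 0 with only the groups compared (0 of 11969 genes, 3662 at an unadjusted p under 0.05), 1 with length and GC trends removed (341 of 12154 genes), 0 with these trends removed and the replicate block (0 of 12154 higher, 2 lower), and 0 to 7 when 1 library was left out. Members called lower were 0 with upper-quartile scaling (1213 of 12154 genes), with no filter (1488 of 18859) and with only the groups compared (0 of 11969). They were also 0 with the replicate block (1040 of 12154), with length and GC trends removed (266 of 12154) and with both (2 of 12154). Leaving out 1 library gave 0 to 2, with 2 where 3008 of 12278 genes were lower. Correlations did not settle whether the replicate numbers pair the libraries. In none of the 6 pairs of conditions did all 3 same-numbered pairs correlate above 0.1, with a range of -0.44 to 0.33. In shRenilla FM against shBruce FM they correlated at 0.06, 0.14 and 0.06, each library best with its own number, and in shRenilla Starv against shBruce Starv at -0.06, -0.22 and -0.44. The replicate block moved the genes called higher and lower between the lines in Starv from 1550 and 1357 to 892 and 1040. For ratios, leaving out 1 library gave log2 differences of 0.0443 to 0.172 for Atg4d/Atg4b, which without shRenilla FM replicate 2 had an exact permutation adjusted p of 0.0467, and of -0.335 to 0.0175 for Atg4a/Atg4b. Values not called that changed sign were those of Gabarap in shRenilla starvation, at 0.0298 with upper-quartile scaling, 0.00680 with length and GC trends removed and 0.00607 with the block as well, and of Map1lc3a there, at 0.00747 with the trends removed and 0.00552 with the block as well. The Gabarapl1 interaction was -0.00549 with the trends removed and -0.00551 with the block as well. Starvation in shBruce ranged, with 1 library left out, from -0.021 to 0.706 for Map1lc3a, from -0.0726 to 0.513 for Gabarapl2 and from -0.16 to 0.171 for Atg4d, each lowest without shBruce Starv replicate 1. Atg4a could not be fitted under the minimum of 10 counts in every library, which it does not meet. The cause of these shifts was not tested.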

Other observations

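Members differ in how much of their sequence other genes share, which bears on how well a read can be placed. Of the 50-base words of the reference transcript, 63.6% also occur in another gene for Atg4a. The genes that shared 20 or more of them were Atg4a-ps and Syt6. The share was 18.6% for Gabarapl1 (the antisense 1700101I11Rik), 18.2% for Atg4d (Kri1), 17% for Gabarapl2 and 13.8% for Map1lc3b. It was 2.14% for Atg4c, 0.655% for Atg4b and 0 for Map1lc3a and Gabarap. For Gabarapl2 and Map1lc3b, every gene that shared 20 or more words was a processed pseudogene. Map1lc3b shared words with 295 other genes in all. How the counting treated such reads was not tested.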
